A study of Mus musculus with 20 samples.

Results

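Piezo1 and 8 genes of the YAP-TEAD pathway were followed in plantaris muscle of old mice that underwent mechanical overload (MOV) or sham surgery, with or without the senolytics dasatinib and quercetin (D + Q). The 9 genes, Piezo1, Yap1, Wwtr1, Tead1, Tead4, Ccn1, Ccn2, Amotl2 and Lats2, were taken by name from the 22660 rows of the count table, and all 9 passed the filter on low counts in every comparison. Piezo1 was chosen by its CPM values in sham muscle, where they differed between treatments, so that difference is given only as a description. The same holds for Piezo1 wherever a single sham group enters a comparison. The other 8 genes were also chosen with earlier results of these data known, so they are not an independent set.

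RNA was sequenced from whole plantaris muscles of 20 mice, with 5 male C57BL/6J mice per group: sham with vehicle, sham with D + Q, MOV with vehicle, and MOV with D + Q. All were labelled as 2 years old. In MOV mice a part of the soleus and gastrocnemius, the synergists of the plantaris, was cut away, whereas sham mice had only the skin opened, and muscles were collected on day 14. D + Q mice received dasatinib (5 mg/kg), a tyrosine kinase inhibitor, and quercetin (50 mg/kg), a plant flavonoid, by gavage on days 7 and 10, although the description of the study gives day 14 for the second gavage of sham mice. Vehicle mice were gavaged without the drugs. Different mice made up each group, and age was not compared here.

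PIEZO1 is a calcium-permeable channel that opens when the cell membrane is stretched, and it is best known from the lining of blood vessels, where it senses flow. YAP (Yap1) and TAZ (Wwtr1) are coactivators that move between cytoplasm and nucleus with the tension a cell experiences. The Hippo kinases LATS1 and LATS2 phosphorylate them and keep them out of the nucleus, where they otherwise bind TEAD factors and switch on genes such as Ccn1, Ccn2 and Amotl2. In muscle, TEAD factors bind the MCAT element, which is found in the promoters of many contractile protein genes.

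The MCAT element, CATTCC or GGAATG on the other strand, was looked for on both strands in the 250 bases before the start of the canonical transcript of 8 of the genes (GENCODE annotation of GRCm39). It was present in 5 of the 8, with 2 matches in Amotl2 and 1 each in Ccn1, Yap1, Wwtr1 and Tead1, and no match in Piezo1, Tead4 or Lats2. Of all 21770 promoters of the same length, 2637 (12.1%) held a match. The windows of Ccn1 (chr3:145355739-145355988, - strand), Tead1 (chr7:112278272-112278521, + strand) and Piezo1 (chr8:123278073-123278322, - strand) are shown 5′ to 3′ with matches in capitals, because Ccn1 had the highest rise with overload among these 8 genes, Tead1 was the one that fell, and Piezo1 rose with no match in its window. A match describes these letters and not binding of a factor.
Ccn1: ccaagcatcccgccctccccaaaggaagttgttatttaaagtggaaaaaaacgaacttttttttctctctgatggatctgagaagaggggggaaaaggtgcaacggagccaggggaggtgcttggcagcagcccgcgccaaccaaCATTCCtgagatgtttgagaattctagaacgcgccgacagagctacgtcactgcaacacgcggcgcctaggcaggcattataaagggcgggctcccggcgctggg
Tead1: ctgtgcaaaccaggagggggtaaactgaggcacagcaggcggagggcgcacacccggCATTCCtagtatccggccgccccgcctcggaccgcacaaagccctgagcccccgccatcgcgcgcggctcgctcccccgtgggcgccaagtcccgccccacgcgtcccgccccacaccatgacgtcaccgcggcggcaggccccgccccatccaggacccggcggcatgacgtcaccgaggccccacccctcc
Piezo1: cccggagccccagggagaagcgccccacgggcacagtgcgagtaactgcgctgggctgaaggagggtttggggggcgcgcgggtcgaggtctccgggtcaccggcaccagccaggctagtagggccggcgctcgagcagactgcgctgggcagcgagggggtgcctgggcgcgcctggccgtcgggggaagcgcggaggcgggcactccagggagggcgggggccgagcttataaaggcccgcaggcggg

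The estimated counts of each mouse summed to between 17887532 and 26234518. Levels are in CPM, that is, counts divided by the TMM-scaled size of the library (edgeR). The TMM factors lay between 0.830 and 0.885 in the sham libraries and between 1.06 and 1.23 in the MOV libraries, so MOV and sham were scaled apart. With total counts alone in place of TMM, the median log2 change of all 15700 genes with MOV moved from -0.0056 to 0.39, and the share of higher genes among those called moved from 50.2% to 82.7%. Changes with overload are therefore relative to the bulk of genes. Markers of muscle fibers, which were summed in CPM, lay between 132800 and 153700 in sham and between 76120 and 109100 in MOV muscle, whereas the 8 fibroblast markers rose from 469–1253 to 6019–14960 and the 8 macrophage markers from 48.1–136 to 240–730. All markers of these 3 lists were detected in every mouse. Over both treatments, 5 of 8 fiber markers fell and 1 rose, all 8 fibroblast and all 8 macrophage markers rose, and of 12 endothelial markers 10 rose and 1 fell, where 36.5% of all genes rose and 36.3% fell. All 4 tenocyte markers rose, as did 3 of 5 satellite cell, 3 of 6 mural cell, 2 of 5 Schwann cell and 1 of 5 adipocyte markers, and 1 mural cell and 4 adipocyte markers fell. In whole muscle, a change in the number of cells of a type and a change in RNA per cell cannot be told apart, and the part of these markers in the results on the 9 genes was not tested.

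Overload changed most of the 9 genes. When MOV was compared with sham over both treatments (20 mice), 6 genes rose, Ccn2, Ccn1, Piezo1, Amotl2, Wwtr1 and Lats2, 1 fell, Tead1, and Yap1 and Tead4 did not pass the test (edgeR's quasi-likelihood test, adjusted p under 0.05). Of all 15700 genes tested, 36.5% rose and 36.3% fell at this threshold, 72.8% in all, so a share of 7 in 9 is near the background. The median log2 change was 0.99 over the 9 genes and -0.0056 over all genes. MOV and sham mice did not overlap for 5 of the 9 genes, 4 higher and 1 lower, against 33.8% of all genes, 17.7% higher and 16.0% lower.

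**Figure D1:**
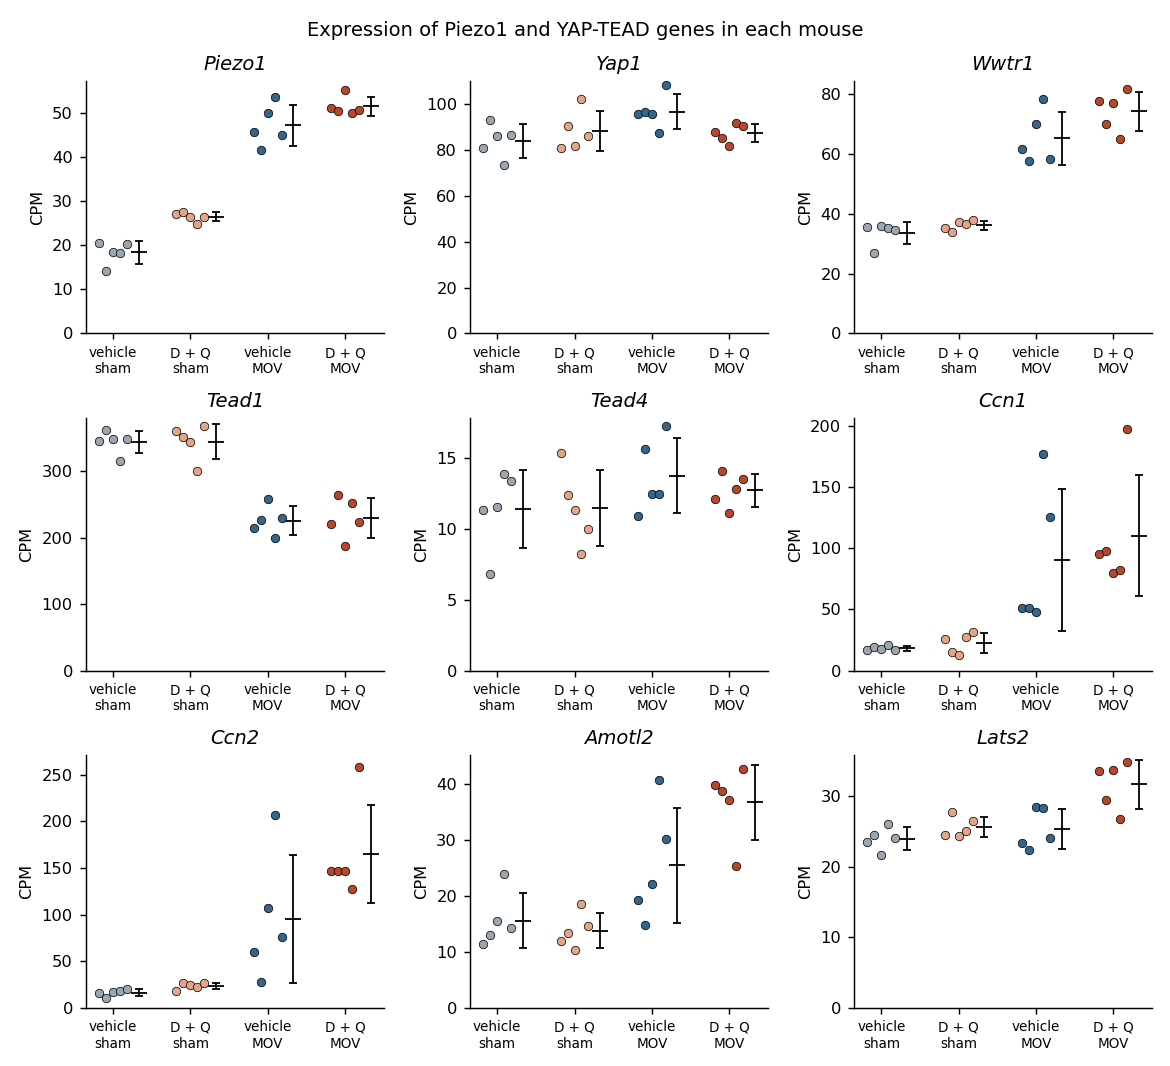
Expression of the 9 genes (CPM, axes from 0) in each of the 5 mice of the 4 groups, with the group mean and SD beside the points. Piezo1, Wwtr1, Ccn1 and Ccn2 lay higher in every MOV mouse than in every sham mouse, and Tead1 lay lower.

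Piezo1 (chromosome 8, 123208437 to 123278072, GRCm39, minus strand, 51 exons in the canonical transcript) was expressed at 20.6, 14.2, 18.6, 18.2 and 20.4 CPM in the 5 vehicle sham mice and at 27.2, 27.6, 26.6, 24.9 and 26.5 CPM in the 5 D + Q sham mice. In vehicle MOV mice it was at 45.8, 41.6, 50.1, 53.8 and 45.0 CPM, and in D + Q MOV mice at 51.3, 50.4, 55.3, 50.1 and 50.7 CPM. The lowest MOV mouse was above the highest sham mouse, and within sham the treated mice lay above all vehicle mice, whereas the MOV groups overlapped. The group means were 18.4 ± 2.58, 26.6 ± 1.01, 47.2 ± 4.74 and 51.6 ± 2.13 CPM (SD, n = 5 each).

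Averaged over treatments, Piezo1 rose 2.22-fold with overload (log2 change 1.15, SE 0.058, edgeR adjusted p = 1.02e-14). The log2 change ranged from 0.94 to 1.56 over the other settings and with each mouse left out. In the picking contrast, D + Q against vehicle in sham, the log2 difference of Piezo1 was 0.51. The log2 difference between MOV and sham was 1.37 with vehicle and 1.00 with D + Q, and each of these shares its sham mice with the picking contrast.

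In overloaded muscle, where no mouse had entered the choice of Piezo1, the channel gene differed by a log2 value of 0.11 between D + Q and vehicle (95% interval -0.043 to 0.27, edgeR adjusted p = 0.653). A test of the difference between sham and MOV would reuse the picking contrast and is not given. The interaction estimate, the D + Q difference in MOV minus that in sham, was -0.40 on the log2 scale.

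PIEZO1 is abundant in endothelium, so 12 endothelial markers, among them Pecam1, Cdh5 and Kdr, were read beside it. Their summed level lay between 253 and 318 CPM in vehicle sham, 247 and 355 in D + Q sham, 381 and 443 in vehicle MOV, and 351 and 446 in D + Q MOV muscle. Between D + Q and vehicle, 11 of the 12 had a positive log2 difference in sham and 3 of 12 in MOV, with 0 called in either comparison and 3 and 0 at an unadjusted p under 0.05. As a percentage of this sum, Piezo1 was at 6.85 ± 0.88 in vehicle sham, 8.86 ± 1.23 in D + Q sham, 11.5 ± 1.68 in vehicle MOV and 13.0 ± 1.61 in D + Q MOV muscle (SD, n = 5 each). The percentage was thus higher in MOV than in sham on average, and its vehicle sham and D + Q sham ranges, 5.62 to 8.01 and 7.66 to 10.8, overlapped. The 8 fibroblast markers had positive log2 differences between D + Q and vehicle in both surgeries, 6 in sham and 5 in MOV at an unadjusted p under 0.05 (10.2% and 8.79% of all genes) and 0 called. The 4 tenocyte markers were also positive in both, 3 in sham and 2 in MOV at an unadjusted p under 0.05 and 0 called, and their sum lay between 37.8 and 56.6 CPM in vehicle sham and between 54.7 and 72.4 CPM in D + Q sham muscle. Whether endothelial, fibroblast or tenocyte content takes part in the Piezo1 levels was not tested.

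An exon of Piezo1 overlaps Ctu2 on the opposite strand, a gene for modification of transfer RNA, and whether the libraries keep strand is not given in the sources used here. Ctu2 was at 8.33 CPM in vehicle sham, 8.01 in D + Q sham, 9.05 in vehicle MOV and 8.95 in D + Q MOV muscle. It differed by -0.080 on the log2 scale between the sham groups and by 0.13 between MOV and sham, smaller values than those of Piezo1. Whether reads of Ctu2 entered the counts of Piezo1 was not tested. Exons of Tead1, Ccn1 and Ccn2 overlap the opposite-strand transcripts 2310014F06Rik, Gm17501 and Gm15270, with means of at most 3.97, 3.63 and 0.91 CPM in a group. An exon of Yap1 overlaps Gm20416 on the opposite strand, and an exon of Lats2 overlaps Gm49361, a protein-coding gene on the same strand whose reads strand could not separate from those of Lats2. Neither was matched to a row of the count table used here, so Lats2 values are uncertain to that extent.

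The coactivators differed. Wwtr1, which encodes TAZ (chromosome 3, 57363067 to 57483331), was at 35.5, 26.9, 35.8, 35.1 and 34.7 CPM in vehicle sham, 35.1, 33.9, 37.1, 36.4 and 37.8 in D + Q sham, 61.7, 57.5, 69.8, 78.4 and 58.2 in vehicle MOV, and 77.5, 70.0, 76.8, 64.9 and 81.5 in D + Q MOV mice. All MOV mice lay above all sham mice, and Wwtr1 rose 1.99-fold (log2 change 0.99, SE 0.062, edgeR adjusted p = 5.28e-13). The rise was 0.96 on the log2 scale with vehicle (edgeR adjusted p = 1.51e-06) and 1.08 with D + Q (adjusted p = 2.79e-10). Vehicle sham mouse 2, with 26.9 CPM, was lower than the other sham mice.

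Yap1 (chromosome 9, 7932000 to 8004661) encodes the paralogue YAP. It was at 80.7, 93.1, 86.1, 73.4 and 86.6 CPM in vehicle sham, 80.7, 90.4, 81.6, 102 and 85.9 in D + Q sham, 95.5, 96.5, 95.6, 87.3 and 108 in vehicle MOV, and 87.8, 85.1, 81.5, 91.9 and 90.2 in D + Q MOV mice. The 4 groups overlapped. The log2 change averaged over treatments was 0.087 (SE 0.051, adjusted p = 0.128), and the gene passed with DESeq2 (0.12, adjusted p = 0.0410), with the RLE scaling of DESeq2 in edgeR (0.12, adjusted p = 0.0409), with total counts alone (0.49, adjusted p = 3.03e-09) and without D + Q sham mouse 4 (0.12, adjusted p = 0.0341). It had a negative value, -0.019, once gene length and GC content were corrected for. With vehicle alone Yap1 was 1.16-fold higher in MOV (log2 change 0.21, edgeR adjusted p = 0.0265), which was lost after the length and GC correction (0.13, adjusted p = 0.167) and without vehicle sham mouse 1 (0.19, adjusted p = 0.0637) or mouse 4 (0.16, adjusted p = 0.0793). Per kilobase of transcript, the ratio of Wwtr1 to Yap1 was 0.361 ± 0.0632 in vehicle sham, 0.367 ± 0.0388 in D + Q sham, 0.607 ± 0.125 in vehicle MOV and 0.758 ± 0.0817 in D + Q MOV muscle (SD, n = 5 each), and the lowest MOV mouse (0.479) exceeded the highest sham mouse (0.426).

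Among the DNA-binding partners, Tead1 (chromosome 7, 112278522 to 112506014), the TEAD factor of adult muscle and heart, was at 345, 361, 349, 315 and 348 CPM in vehicle sham, 360, 351, 343, 300 and 367 in D + Q sham, 214, 227, 258, 199 and 230 in vehicle MOV, and 220, 264, 188, 253 and 224 in D + Q MOV mice. Every MOV mouse was below every sham mouse. Tead1 fell by 0.60 on the log2 scale (SE 0.059, edgeR adjusted p = 1.50e-09), and by 0.20 with total counts alone (adjusted p = 0.00109), where the median of all genes was 0.39. With vehicle the log2 change was -0.60 (edgeR adjusted p = 9.87e-06) and with D + Q -0.54 (adjusted p = 2.42e-05).

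Tead4 (chromosome 6, 128201251 to 128277786), a TEAD factor of myoblasts, had the lowest level per kilobase of the 9 genes in each group. It was at 11.4, 6.84, 11.5, 13.9 and 13.3 CPM in vehicle sham, 15.3, 12.4, 11.4, 8.25 and 10.0 in D + Q sham, 10.9, 15.6, 12.5, 12.4 and 17.3 in vehicle MOV, and 12.1, 14.1, 11.1, 12.8 and 13.5 in D + Q MOV mice. The groups overlapped and the log2 change was 0.20 (95% interval -0.045 to 0.45, edgeR adjusted p = 0.132). It passed with total counts alone (0.60, edgeR adjusted p = 5.92e-05) and without D + Q sham mouse 1 (0.27, adjusted p = 0.0410). Per kilobase, the ratio of Tead4 to Tead1 was 0.0563 ± 0.0157 in vehicle sham, 0.0557 ± 0.0107 in D + Q sham, 0.103 ± 0.0193 in vehicle MOV and 0.0936 ± 0.00688 in D + Q MOV muscle (SD, n = 5 each). The MOV mice, from 0.0812, did not overlap the sham mice, up to 0.0741.

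**Figure D2:**
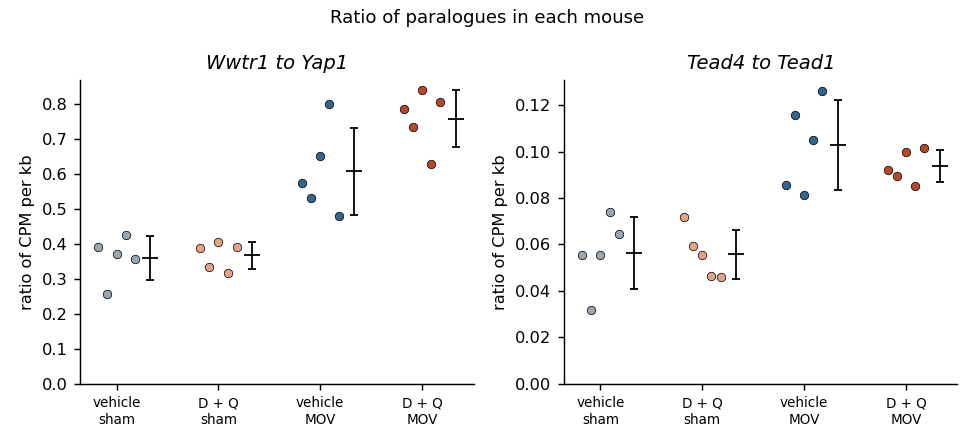
Ratio of CPM per kilobase of Wwtr1 to Yap1 (left) and of Tead4 to Tead1 (right) in each of the 5 mice per group, with the mean and SD beside the points. Both ratios were higher in all MOV mice than in all sham mice.

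Of the 9 genes, the targets Ccn2 and Ccn1 rose furthest with overload and varied most between mice in both MOV groups. Ccn2, which encodes connective tissue growth factor, was at 15.8, 10.9, 16.9, 18.2 and 19.8 CPM in vehicle sham and 18.1, 26.4, 23.9, 22.2 and 26.1 in D + Q sham mice. After overload it reached 59.4, 28.2, 107, 207 and 75.8 CPM with vehicle and 147, 147, 147, 128 and 259 CPM with D + Q. The lowest MOV mouse, vehicle mouse 2, was just above the highest sham mouse, at 26.4. Ccn2 rose 6.42-fold (log2 change 2.68, SE 0.28, edgeR adjusted p = 1.75e-07).

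Ccn1 (chromosome 3, 145352720 to 145355738), which encodes the related matricellular protein CYR61, was at 16.6, 18.9, 17.5, 21.3 and 16.7 CPM in vehicle sham and 26.2, 14.9, 12.4, 27.4 and 31.9 in D + Q sham mice. In MOV muscle it was at 51.1, 51.0, 47.7, 177 and 125 CPM with vehicle and 95.1, 97.8, 79.4, 82.2 and 197 with D + Q. All MOV mice lay above all sham mice. Ccn1 rose 4.90-fold (log2 change 2.29, SE 0.29, edgeR adjusted p = 1.49e-06). The coefficient of variation in vehicle MOV was 64.5% for Ccn1 and 71.9% for Ccn2, against 10.7% and 20.6% in vehicle sham.

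In vehicle MOV muscle the mice with the lowest and the highest Ccn2 were also at the ends of the marker sums. Mouse 2 had the lowest Ccn2 of the group together with the lowest fibroblast sum, 6019 CPM, the lowest macrophage sum, 240 CPM, and the highest muscle fiber sum, 109100 CPM. Mouse 4, with the highest Ccn2, had the highest fibroblast (12010 CPM) and macrophage (730 CPM) sums and the lowest muscle fiber sum (76180 CPM). In D + Q MOV muscle the mice with the lowest and the highest Ccn2 were not at the ends of the sums. There mouse 3 had the highest fibroblast (14960 CPM) and macrophage (653 CPM) sums and the lowest muscle fiber sum (76120 CPM), with Ccn2 at 147 CPM. Mouse 5, with the highest Ccn2 (259 CPM), was next to mouse 3 in each list, with sums of 13350, 592 and 78380 CPM. Mouse 4, with the lowest Ccn2 (128 CPM), had sums of 11810, 557 and 91760 CPM. The lowest fibroblast and macrophage sums, 10750 and 539 CPM, were those of mouse 2. Whether cell content takes part in the spread of Ccn2 was not tested.

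Amotl2 (chromosome 9, 102593836 to 102610617), an angiomotin that binds YAP and is also one of its targets, was at 11.4, 12.9, 15.4, 23.9 and 14.2 CPM in vehicle sham and 11.9, 13.4, 10.2, 18.5 and 14.6 in D + Q sham mice. With overload it was at 19.3, 14.8, 22.1, 40.7 and 30.2 CPM with vehicle and 39.7, 38.7, 37.1, 25.2 and 42.7 with D + Q. The vehicle MOV mice overlapped the sham mice, whereas all D + Q MOV mice lay above them. Amotl2 rose 2.08-fold over both treatments (log2 change 1.06, SE 0.18, edgeR adjusted p = 4.69e-05) and 2.74-fold with D + Q (log2 change 1.46, SE 0.17, adjusted p = 2.20e-05). With vehicle the log2 difference of 0.72 did not pass (95% interval 0.058 to 1.38, edgeR adjusted p = 0.0582). That value passed with DESeq2 (adjusted p = 0.0364) and without vehicle sham mouse 4 (0.92, adjusted p = 0.0168), vehicle MOV mouse 1 (0.82, adjusted p = 0.0474) or vehicle MOV mouse 2 (0.88, adjusted p = 0.0205). The difference between both overload responses had a log2 estimate of 0.70 (95% interval -0.064 to 1.47, edgeR adjusted p = 0.855).

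Lats2 (chromosome 14, 57926960 to 57995845), the kinase that phosphorylates YAP and TAZ, changed little. It was at 23.4, 24.4, 21.6, 26.1 and 24.0 CPM in vehicle sham, 24.5, 27.8, 24.3, 25.0 and 26.5 in D + Q sham, 23.3, 22.4, 28.5, 28.4 and 24.1 in vehicle MOV, and 33.6, 29.5, 33.7, 26.7 and 34.9 in D + Q MOV mice. The 4 D + Q MOV mice other than mouse 4 were above all sham and vehicle MOV mice. The log2 change with overload was 0.19 over both treatments (SE 0.059, edgeR adjusted p = 0.00606), 0.35 with D + Q (adjusted p = 0.000672) and 0.090 with vehicle (adjusted p = 0.392). The change over both treatments was lost after the length and GC correction (0.059, edgeR adjusted p = 0.352).

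**Figure D3:**
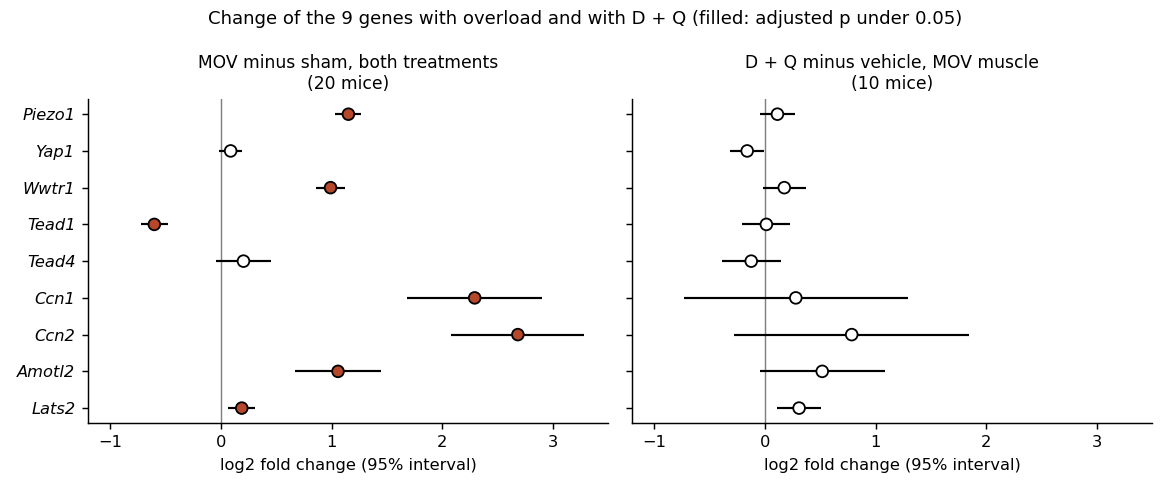
Log2 fold changes of the 9 genes with 95% intervals for MOV against sham over both treatments in 20 mice (left) and D + Q against vehicle in MOV muscle in 10 mice (right), with filled points for an adjusted p under 0.05. On the left 7 genes are filled and Ccn2 is farthest to the right, and on the right no gene is filled.

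Within each treatment the overload response was read on separate mice. With vehicle, 5 genes rose and 1 fell, against 30.7% and 29.8% of 14601 genes (60.5% in all). The groups did not overlap for 5 genes, against 46.4%. With D + Q, 6 genes rose and 1 fell, against 34.4% and 30.9% of 14913 genes (65.3% in all). The groups did not overlap for 6 genes, against 53.0%. Piezo1 is among the genes that rose and did not overlap with either treatment. Its sham values entered its choice, so it is counted there only as a description. Ccn1 had nearly equal log2 changes, 2.32 with vehicle (edgeR adjusted p = 0.00137) and 2.33 with D + Q (adjusted p = 0.000496), and Ccn2 had 2.56 (adjusted p = 0.00226) and 2.87 (adjusted p = 2.04e-06).

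D + Q was compared with vehicle in overloaded muscle to see whether the treatment altered these genes after MOV. With edgeR's quasi-likelihood test 0 of the 9 genes were called at an adjusted p under 0.05, as were 0 of 15238 genes (0.00%), and DESeq2 and limma-voom also called 0 of the 9. At an unadjusted p under 0.05 there were 2 of the 9, Lats2 and Yap1, against 8.79% of all genes. The groups overlapped for all 9 genes, against 1.44% of all genes whose groups did not.

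Ccn2 had the largest difference of the 9, a mean of 165 ± 52.9 CPM with D + Q and 95.5 ± 68.7 with vehicle (SD, n = 5 each). Its log2 difference of 0.78 had a 95% interval of -0.28 to 1.85 (edgeR adjusted p = 0.642), and ran from 0.55 without vehicle MOV mouse 2 to 1.27 without vehicle MOV mouse 4. For Amotl2 the log2 difference was 0.52 (95% interval -0.050 to 1.08, edgeR adjusted p = 0.582), for Lats2 0.31 (0.11 to 0.51, adjusted p = 0.523) and for Yap1 -0.16 (-0.32 to -0.0078, adjusted p = 0.547). Wwtr1 differed by 0.17, Tead4 by -0.13 and Tead1 by 0.012, with edgeR adjusted p-values of 0.588, 0.768 and 0.977. Ccn1 differed by 0.28 (95% interval -0.74 to 1.29), and by -0.037 without D + Q MOV mouse 5, which had 197 CPM. The intervals of Ccn1, Ccn2 and Amotl2 are wide and their upper bounds exceeded 1 on the log2 scale at this number of mice.

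In sham muscle, where Piezo1 was picked, 0.215% of 13926 genes were called and the groups did not overlap for 2.05%, and nothing is read from either share for Piezo1. The log2 differences of the other genes are given as a description: Ccn2 0.50, Ccn1 0.30, Wwtr1 0.086, Lats2 0.082, Yap1 0.054, Tead4 -0.0067, Tead1 -0.013 and Amotl2 -0.19. The mean of Ccn2 was 23.3 ± 3.38 CPM with D + Q and 16.3 ± 3.36 with vehicle (SD, n = 5 each), with 1 D + Q mouse at 18.1 inside the vehicle range. In the interaction of treatment and surgery Piezo1 is left out, because its estimate contains the picking contrast. Of the other genes, 0 were called by edgeR, DESeq2 or limma-voom. Yap1 was at an unadjusted p under 0.05 by edgeR (5.71% of all genes). Of 15700 genes, 0.0127% were called.

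The order of levels differed between the groups. By group mean, Tead1 and Yap1 stood first in both sham groups, and Ccn1 and Ccn2 in both MOV groups. In vehicle sham muscle, the level in CPM per kilobase was highest for Tead1 (34.5), followed by Yap1 (20.1), Ccn1 (8.97), Wwtr1 (7.15), Ccn2 (5.98), Lats2 (4.36), Amotl2 (3.60), Piezo1 (2.24) and Tead4 (1.92). From Wwtr1 through Amotl2 each gene overlapped the next over the 5 mice, as did Piezo1 and Tead4, and the other neighbours did not overlap. In D + Q sham muscle, also without overload, Ccn2 (8.55) stood above Wwtr1 (7.67) and Piezo1 (3.23) above Amotl2 (3.17), and both pairs overlapped. In D + Q MOV muscle Ccn2 (60.6) and Ccn1 (54.3) stood first and overlapped each other. They were followed by Tead1 (23.0) and Yap1 (20.9), which also overlapped, and by Wwtr1 (15.8), Amotl2 (8.48), Piezo1 (6.27), Lats2 (5.77) and Tead4 (2.14). Piezo1 overlapped both Amotl2 and Lats2. In vehicle MOV muscle Ccn1 (44.5) and Ccn2 (35.0) were first, and their lowest mice, 23.5 and 10.3 CPM per kilobase, reached down to the level of Yap1 (23.1) or below it. Yap1 was followed there by Tead1 (22.61), which it overlapped, Wwtr1 (13.85), Amotl2 (5.869), Piezo1 (5.745), Lats2 (4.618) and Tead4 (2.315).

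The genes most like Piezo1 were found by Pearson correlation of log2 CPM over the 20 mice, which share the overload difference. They were Col4a2 (0.98), a basement membrane collagen chain, Man2a1 (0.98), Glis2 (0.98), Sptan1 (0.98) and Rhoj (0.98), an endothelial GTPase. When the mean of each group was removed first, the highest were Cnpy4 (0.90), Copb1 (0.89), Pmepa1 (0.86), Pcbd1 (0.86) and Plcg2 (0.86), with no gene in both sets. Among the 9 genes, the 36 pairs of such deviations had correlations from -0.52 (Piezo1 and Yap1) to 0.77 (Piezo1 and Wwtr1) with a median of 0.092 (20 mice). Wwtr1 and Ccn2 had 0.76, Ccn1 and Amotl2 0.73, and Piezo1 and Ccn1 0.070. The points share the library and its scaling.

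The rest of the pathway was read from 4 lists, which were written with earlier results of these data known. Among other YAP and TAZ target genes, 17 of 18 were tested with overload over both treatments, and 11 rose, 4 fell and 2 did not pass (median log2 change 0.83, against -0.0056 for all genes). Of all genes 72.8% were called, 36.5% higher and 36.3% lower, so 15 called of 17 is not far from the background, and the same shares stand beside the counts of the next 3 lists. Fjx1 rose by 3.63 (SE 0.23, edgeR adjusted p = 2.32e-12), Ccdc80, a matrix protein, by 3.41 (SE 0.13, adjusted p = 2.21e-14), and Ankrd1, a stretch-responsive titin-binding protein, by 3.35 (SE 0.27, adjusted p = 6.19e-09). Ankrd1 had means of 19.2 ± 5.98 CPM in vehicle sham and 226 ± 138 in vehicle MOV muscle (SD, n = 5 each). Fjx1 started from a low level, with means of 0.680 ± 0.212 CPM in vehicle sham and 7.79 ± 2.61 in vehicle MOV muscle. Crim1 fell by 1.01, Arhgef17 by 0.35 and Ptpn14, a phosphatase that binds YAP, by 0.24, of which Arhgef17 and Ptpn14 turned positive with total counts alone (0.044 and 0.16). With D + Q alone Ptpn14 did not pass (-0.11, edgeR adjusted p = 0.147). Tgfb2, a TGF-beta ligand, fell by 0.19 over both treatments (edgeR adjusted p = 0.0264) and by 0.31 with vehicle (adjusted p = 0.0398), and with D + Q it was at -0.015 (adjusted p = 0.884). The value with vehicle turned positive with total counts alone (0.072), and its call was lost with DESeq2 (-0.30, adjusted p = 0.0503), with RLE scaling in edgeR (-0.30, adjusted p = 0.0521), and without vehicle sham mouse 1, 3 or 4 or vehicle MOV mouse 1, 2, 4 or 5, where the log2 change lay between -0.33 and -0.23. Foxf2, with at most 25 counts in a mouse, was not tested.

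Of the Hippo kinases, adaptors and upstream regulators, 19 of 20 were tested, and 10 rose, 6 fell and 3 did not pass (median log2 change 0.30), 16 called of 19 against 72.8% of all genes. Dchs1, a giant protocadherin, rose by 2.30 (SE 0.14, edgeR adjusted p = 2.44e-12), Ajuba, a LIM protein that binds LATS kinases, by 1.93 (SE 0.17, adjusted p = 1.85e-10) and Map4k4, a kinase upstream of LATS, by 1.80 (SE 0.072, adjusted p = 3.15e-16). Amotl1, a paralogue of Amotl2, fell by 0.65 (SE 0.063, edgeR adjusted p = 1.10e-09), Nf2, the scaffold merlin, by 0.53 (SE 0.044, adjusted p = 9.87e-11) and Limd1 by 0.48 (SE 0.042, adjusted p = 1.91e-10), although Limd1 was not called with total counts alone (-0.076, adjusted p = 0.0710). Amotl2 and Amotl1 thus moved in opposite directions, with Amotl1 at 765 ± 94.7 CPM in vehicle sham and 488 ± 62.0 in vehicle MOV muscle (SD, n = 5 each). Fat4, the protocadherin that binds Dchs1, rose by 1.60 over both treatments (edgeR adjusted p = 6.38e-12), by 1.35 with vehicle (adjusted p = 1.43e-05) and by 1.92 with D + Q (adjusted p = 1.14e-09). Wwc1, with at most 10 counts in a mouse, was not tested.

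Of the other TEAD factors and VGLL cofactors, all 5 were tested, and 4 rose and 1 fell (median log2 change 0.56), against 72.8% of all genes called. Vgll3, a cofactor that binds TEAD, rose by 1.97 (SE 0.13, edgeR adjusted p = 2.58e-12), Tead2 by 1.86 (SE 0.17, adjusted p = 4.17e-10) and Tead3 by 0.56 (SE 0.060, adjusted p = 7.62e-09), and Vgll4, which represses TEAD, fell by 0.30 (SE 0.077, adjusted p = 0.00113), but Vgll4 turned positive with total counts alone (0.10). The log2 change of Vgll4 was -0.47 with vehicle (edgeR adjusted p = 0.000489) and -0.074 with D + Q (adjusted p = 0.595), with an interaction estimate of 0.36 (adjusted p = 0.813). Per kilobase, Tead2 was at 0.539 ± 0.188 CPM in vehicle sham and 1.99 ± 0.493 in vehicle MOV muscle (SD, n = 5 each), and Tead1 stayed above it at 22.6 ± 2.18. Of the 4 Tead genes Tead1 was thus the one that fell, while Tead2 and Tead3 rose and Tead4 did not pass.

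Of Piezo2, Piezo auxiliary proteins and other mechanically activated channels, 8 of 11 were tested, and 5 rose, 2 fell and 1 did not pass (median log2 change 1.08), 7 called of 8 against 72.8% of all genes. Piezo2, the touch and proprioception channel, rose by 3.41 (SE 0.16, edgeR adjusted p = 3.87e-15), Mdfi, a paralogue of the PIEZO auxiliary subunit Mdfic, by 2.41 (SE 0.21, adjusted p = 2.41e-10) and Pkd2, the polycystin channel, by 1.85 (SE 0.092, adjusted p = 1.60e-13). Per kilobase, Piezo2 was at 0.0934 ± 0.0304 CPM in vehicle sham and 0.918 ± 0.226 in vehicle MOV muscle (SD, n = 5 each), below Piezo1 at 2.24 ± 0.313 and 5.75 ± 0.577. Mdfi started from a low level, with means of 0.615 ± 0.274 CPM in vehicle sham and 3.38 ± 0.710 in vehicle MOV muscle, not divided by length. Tmem63a and Tmem63b, osmotically activated channels, fell by 0.30 and 0.22, and both turned positive with total counts alone (0.10 and 0.18). With vehicle alone neither passed (-0.17 and -0.15, edgeR adjusted p = 0.117 and 0.0951). Stoml3, Tmem63c and Kcnk4 had at most 11 counts in a mouse and were not tested. In D + Q against vehicle, 0 genes of the 4 lists were called in MOV or in sham muscle by edgeR's quasi-likelihood test, with 14 of 49 in MOV and 11 of 48 in sham at an unadjusted p under 0.05, against 8.79% and 10.2% of all genes.

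**Figure D4:**
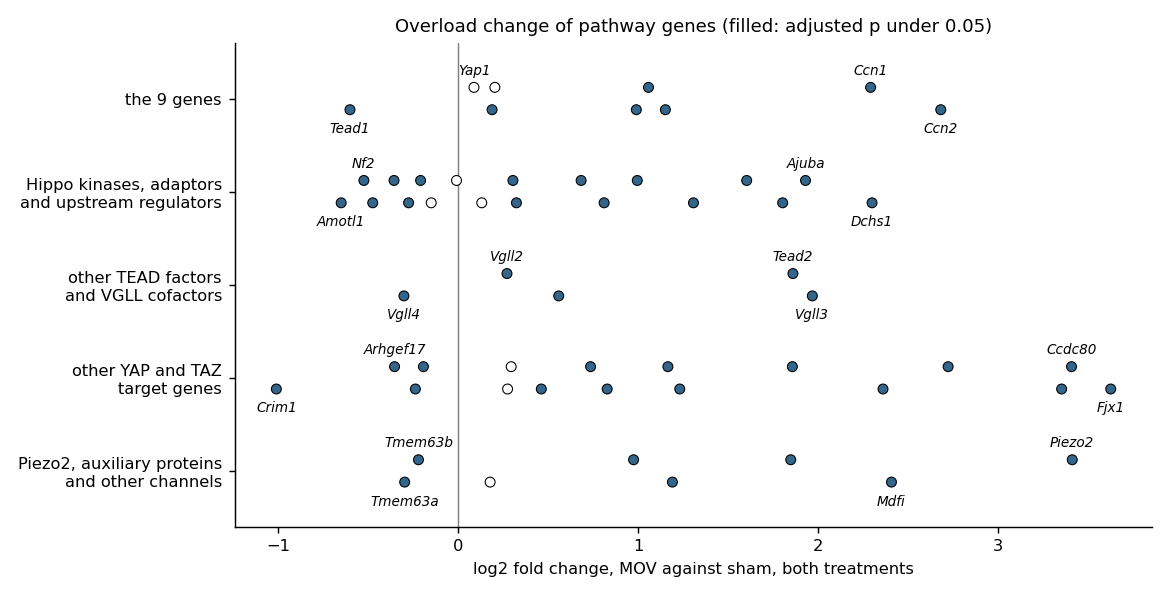
Log2 fold change with MOV against sham over both treatments for the 9 genes and the tested genes of 4 pathway lists, with filled points for an adjusted p under 0.05 and the outermost genes named. Each list held genes on both sides of 0, with more genes to the right.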

How the data were processed

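Plantaris RNA of 20 mice was analysed, 5 per group. The authors aligned reads to GRCm39 with STAR 2.7.8a and quantified them in Partek, and deposited estimated counts per gene without normalization, of which 29.8% were not whole and were rounded. No column was left without a sample. Positions, transcript length and GC content came from the GENCODE annotation of GRCm39 (96.2% of rows matched). One promoter window is not reported here.

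Each comparison used edgeR 4.0.16 (R 4.3.3), quasi-likelihood test, TMM scaling, genes that reached 10 counts in 5 or more mice of the fit, Benjamini-Hochberg adjustment over all genes tested and a threshold of 0.05. MOV against sham over both treatments and the interaction used all 20 mice, and the other comparisons their own 10 mice. Each p-value sets a group difference against a spread that holds variation between mice and counting error, and this spread is estimated with information from other genes. Counting error is small at these depths except for genes of few counts. The test was tested on simulated data. Alternatives were DESeq2 1.42.0, limma 3.58.1 (voom), RLE factors, total counts, count filters, length and GC correction, the replicate block, all 20 mice, and each mouse left out.

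Named genes were the 9 genes, up to 3 risers and 3 fallers of each pathway list, and the 5 genes most like Piezo1 by each measure. The 9 genes and the lists were chosen with earlier results of these data known. Marker lists of muscle fibers, endothelium, fibroblasts, macrophages, satellite cells, mural cells, Schwann cells, adipocytes and tenocytes were used. No pair of libraries of a group differed by as little as sampling noise, the lowest ratio of observed to counting variance being 6.53.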

Additional observations from a re-analysis of the deposited data

Results flagged for a closer look

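Of 36 sets of 5 mice (9 genes in 4 groups), 4 had a mouse farther from the others than Dixon's criterion for 5 values allows (0.71 of the range), and chance gives this in about 1 of 20 sets. Ccn1 in D + Q MOV mouse 5 was at 197 CPM, with the other 4 mice between 79.4 and 97.8. The same mouse had Ccn2 at 259 CPM, with the others between 128 and 147. Piezo1 in D + Q MOV mouse 3 was at 55.3 CPM, with the others between 50.1 and 51.3. Wwtr1 in vehicle sham mouse 2 was at 26.9 CPM, with the others between 34.7 and 35.8, and this mouse was also the lowest of its group for Piezo1 (14.2 CPM), Ccn2 (10.9 CPM) and Tead4 (6.84 CPM).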

How the results depend on the processing

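The number of the 9 genes called with overload over both treatments was 7, and 6 to 9 under the other settings, and 0 in D + Q against vehicle in MOV under each setting run. In the interaction 0 of the genes other than Piezo1, which is not read there, were called under each setting run. In D + Q against vehicle in sham the number of the 9 genes called was 1, Piezo1. This contrast picked Piezo1, so its calls there are a description and give no support. The number was 2 with DESeq2 (with Ccn2), 0 after the length and GC correction and 0 with the replicate block and that correction. With a mouse left out it was 0 to 1 (0 without vehicle sham mouse 1, 3 or 4 or D + Q sham mouse 2, 3 or 5). The log2 difference of Piezo1 there ran from 0.43 to 0.56. The cause was not tested. DESeq2 called 11 genes in all against 0 in MOV, and 133 against 30 in sham, for D + Q.

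Mice of different groups share only a replicate number, since 2 of 20 same-number pairs had correlated deviations above 0.1 (range -0.15 to 0.19). In 4 of 20 the best match of a mouse, among the 5 mice of the other group, had the same number. With the replicate block, Amotl2 with vehicle passed (0.68, adjusted p = 0.00023), 7 genes were called with vehicle in place of 6, and Ccn1 in the interaction turned to 0.18. Piezo1 is in both of these counts, only as a description.

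Some signs turned, in values that were not called by the same setting unless a p is given here. With limma-voom, Tead1 in D + Q against vehicle in MOV was -0.0028, and in the interaction Tead1 was -0.010, Tead4 0.0056 and Ccn1 0.31. After the length and GC correction, without and with the replicate block, Tead1 in D + Q against vehicle in MOV was -0.061 and -0.068, Lats2 with vehicle overload -0.028 and -0.032, Yap1 with D + Q overload -0.11 and -0.10, Yap1 over both treatments -0.019 and -0.018, Tead1 in the interaction -0.0029 and -0.0056, and with the block Ccn1 in the interaction was 0.19. With all 20 mice in one fit, Yap1 with D + Q overload was -0.023. With total counts alone, Arhgef17 turned to 0.023 with vehicle, 0.065 with D + Q and 0.044 over both, Tgfb2 to 0.072 with vehicle, Tmem63b to 0.13 with D + Q and 0.18 over both (adjusted p = 0.00158), Vgll4 to 0.10, Ptpn14 to 0.16 (adjusted p = 0.0312) and Tmem63a to 0.10, and all 9 genes were called with overload.

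With a mouse left out, the ranges that crossed 0 were -0.044 to 0.078 for Tead1 and -0.037 to 0.66 for Ccn1 in D + Q against vehicle in MOV, -0.0059 to 0.084 for Yap1 with D + Q overload, and -0.34 to 0.37 (Ccn1), -0.22 to 0.018 (Tead4) and -0.033 to 0.088 (Tead1) in the interaction, and -0.32 to 0.012 (Amotl2), -0.044 to 0.035 (Tead1), -0.14 to 0.095 (Tead4) and -0.0026 to 0.0997 (Yap1) in D + Q against vehicle in sham. Depth left Foxf2, Wwc1, Stoml3, Tmem63c and Kcnk4, with at most 25 counts in a mouse, untested.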
